A study of Danio rerio with 6 samples.

Results

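The genes described here encode ion channels, pumps, gap junction proteins and solute carriers, the proteins that move ions and small molecules across cell membranes. They were selected by symbol from the study's own ranked table of genes that differed between injured mdka-KO and wild-type (WT) hearts, taking the prefixes of the solute carriers, the potassium, calcium, sodium and chloride channels, the anoctamins, transient receptor potential channels, ryanodine and inositol trisphosphate receptors, sodium and calcium pumps, connexins and aquaporins. The solute carriers of mitochondria and 1 erythrocyte carrier were left out. Genes on chromosome 7, which carries mdka, were also left out (6 more rows). This gave 39 genes of the 32520 in the deposited table. Of the study's ranked table, the first 1264 rows were used here, so where the members end reflects those rows and not a threshold of the study. The table had been ranked by the p-value of the very contrast described below, so the members were chosen by their difference between genotypes. Their values are therefore given as a description with no test. The prefixes also caught proteins that are not channels or carriers of small solutes, namely itprid2 and atp11a, and these were kept as the rule took them.

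RNA was sequenced from the ventricular apex of adult zebrafish (AB background) at 7 days post-cryoinjury (dpci), a freezing injury of the ventricle that zebrafish normally repair. The mdka-KO fish carried the cn105 allele, a CRISPR/Cas9 mutation in the exon of mdka that encodes the N-terminal part of the protein, a secreted growth factor switched on in the epicardium after injury. The WT fish carried the mdka+/+ genotype and received the same injury. Each genotype was represented by 3 pools of 3 apexes, numbered 2, 3 and 4 for mdka-KO and 1, 2 and 4 for WT, and values below follow that order. All fish had been injured and no uninjured heart was analysed here, so the values compare 2 genotypes after injury. The mdka-KO pools come from 1 mutant allele. In bulk RNA of whole apexes fewer cells of a type and less RNA per cell cannot be told apart.

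Heart muscle cells depend on these proteins at every beat. Sodium and calcium channels depolarize the membrane, potassium channels restore its resting state, and gap junctions pass the signal to the next cell. Calcium enters through the surface membrane, is released from the sarcoplasmic reticulum through ryanodine receptors, and is then pumped back by the calcium ATPase Serca or expelled by the sodium-calcium exchanger, while the sodium pump maintains the gradients that drive exchange. Solute carriers of the plasma membrane and of lysosomes deliver amino acids, nucleosides, vitamins, metals, fatty acids and sugars in nearly all cell types, including the macrophages and fibroblasts that enter an injured heart.

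The rounded expected counts summed to between 18940081 and 25195360 per library. Levels are given as CPM, counts relative to library size, scaled by the trimmed mean of M-values (TMM), and log2 fold changes as mdka-KO over WT with their standard error (SE). CPM are not divided by gene length, so they compare pools and not genes. The TMM factors were 1.02 to 1.07 in mdka-KO pools and 0.932 to 0.974 in WT pools, so with scaling by library size alone the median log2 fold change of all tested genes became 0.13, against -0.01 with TMM. mdka itself had 81.8, 132 and 139 CPM in mdka-KO pools, against 429, 731 and 1069.5 CPM in WT pools. All mdka-KO pools were below all WT pools, with a log2 fold change of -2.66 ± 0.36 (SE, adjusted p = 0.0944 by edgeR's quasi-likelihood test). Passing the test means from here on an unadjusted p below 0.05 by edgeR, the threshold the study used, and 12.1% of the 17879 tested genes passed. Of all tested genes, 5.64% passed as higher and 6.42% as lower in mdka-KO. Only 0.00559% (1 gene) had an adjusted p below 0.05 by edgeR, against 445 genes by DESeq2 and 2 by limma-voom. Adjusted p-values are printed beside many of the named genes that are not members.

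All 39 members passed the filter on low counts. In mdka-KO, 21 were higher and 18 lower, with log2 fold changes between -1.18 and 1.26. The 3 pools of one genotype lay entirely above or below those of the other in 38 of the 39, against 17.7% of all tested genes; the ranking that chose the members fixes most of that count and nothing is read from it. The solute carriers numbered 13 higher and 7 lower, and the other members 8 higher and 11 lower. The reads behind a gene, summed over the 6 libraries, had a median of 2254 among the higher members and 9103.5 among the lower ones. Beside the lower members, the summed level of 10 cardiomyocyte markers was 36534 to 44701 CPM in mdka-KO pools and 51104 to 56519 CPM in WT pools, with none of them at 0. A fuller comparison with these markers follows the gene groups. The 39 genes lay on 22 chromosomes, with at most 4 on any one, 21 on the forward and 18 on the reverse strand. Only trpv1 and aqp3a, both on chromosome 5, were within 1 Mb of each other (0.848 Mb). The last member by rank was slc26a11 (log2 fold change 0.39 ± 0.15 (SE)). Among family genes outside the rows used here, the one with the smallest p was slc24a2 (log2 fold change -1.24 ± 0.37 (SE)).

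**Figure D1:**
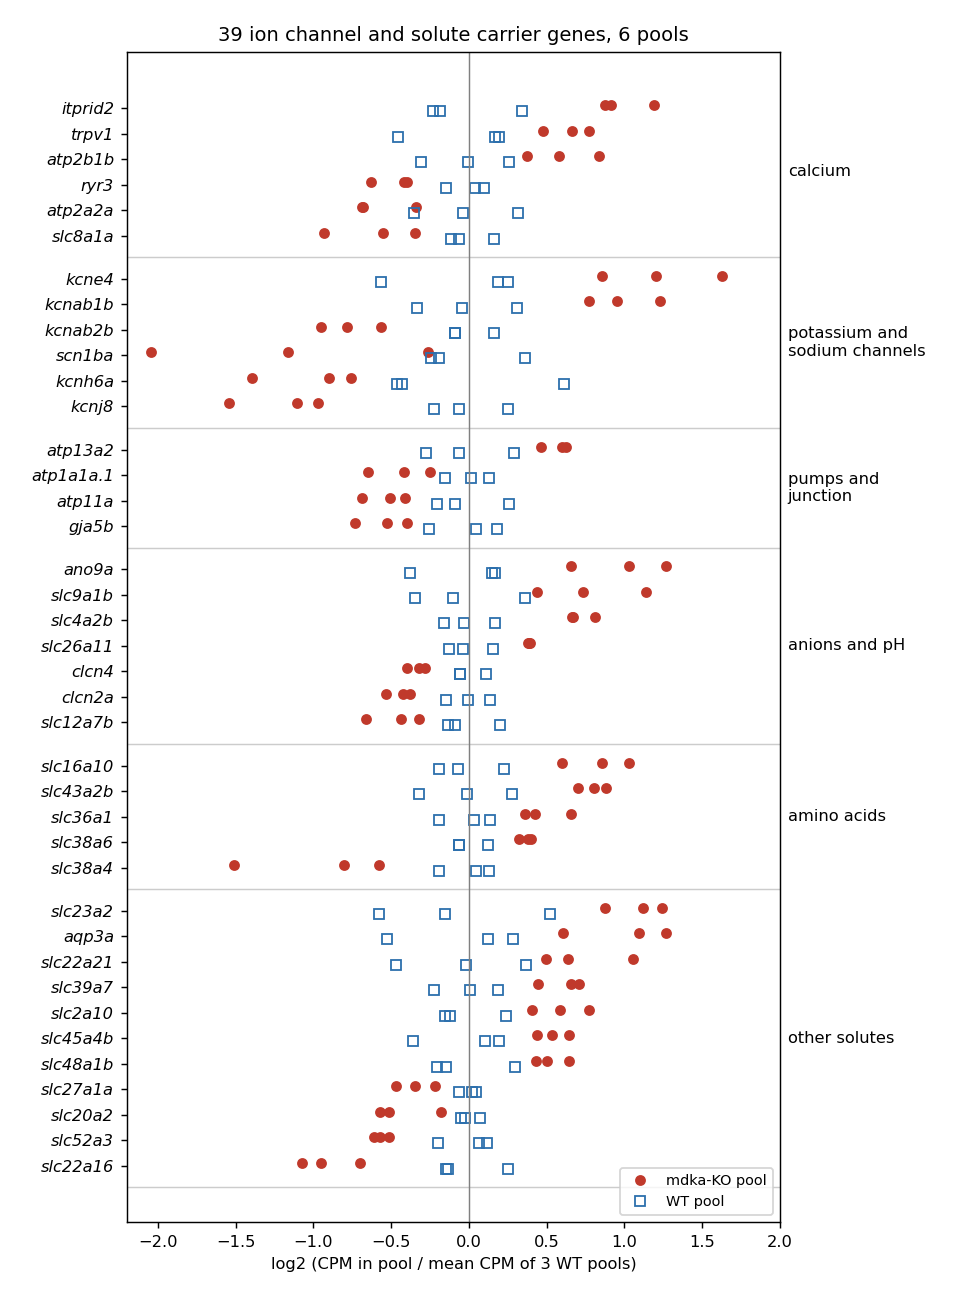
Each row is 1 of the 39 members, grouped by role, with the level in each mdka-KO pool (filled circles) and each WT pool (open squares) as log2 of CPM over the mean of the 3 WT pools. The mdka-KO pools of the 21 higher members lie to the right of the WT pools and those of the 18 lower members to the left, with an overlap in atp2a2a only.

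Of the 6 members connected with calcium, 3 were lower and 3 higher in mdka-KO. The lower ones act in the calcium cycle of muscle. atp2a2a, which encodes the Serca pump that refills the sarcoplasmic reticulum, had 2986, 2346 and 2354 CPM in mdka-KO pools, against 4711, 3679.5 and 2954.5 CPM in WT pools. The highest mdka-KO pool (2986) exceeded the lowest WT pool (2954.5), so the groups overlapped by this pair alone. It had a log2 fold change of -0.56 ± 0.19 (SE), which became -0.37 without WT pool 1. atp2a2a lies on GRCz11 chromosome 8 at 11687254 to 11744994, forward strand. slc8a1a encodes the sodium-calcium exchanger of heart muscle, which removes calcium from the cell between beats. It had 485, 421 and 323.5 CPM in mdka-KO pools, against 592, 691 and 570.5 CPM in WT pools, with a log2 fold change of -0.59 ± 0.17 (SE). The lowest value was in mdka-KO pool 4, and the highest mdka-KO pool was below the lowest WT pool. ryr3, a ryanodine receptor that releases stored calcium, had 37.0, 37.6 and 31.9 CPM in mdka-KO pools, against 44.5, 50.9 and 52.9 CPM in WT pools, with a log2 fold change of -0.48 ± 0.12 (SE). The mdka-KO pools were close together at 31.9 to 37.6 CPM and below all WT pools.

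The 3 higher calcium members were itprid2, trpv1 and atp2b1b. itprid2, an inositol trisphosphate receptor-interacting protein and not itself a channel, had 87.5, 70.3 and 72.2 CPM in mdka-KO pools, against 48.5, 33.7 and 32.7 CPM in WT pools. The lowest mdka-KO pool exceeded the highest WT pool, with a log2 fold change of 1.0 ± 0.18 (SE). trpv1, a cation channel best known from pain-sensing neurons, had 23.2, 26.4 and 28.5 CPM in mdka-KO pools, against 12.2, 18.8 and 19.1 CPM in WT pools, with a log2 fold change of 0.64 ± 0.19 (SE). atp2b1b, a calcium pump of the plasma membrane, had 7.60, 5.53 and 6.38 CPM in mdka-KO pools, against 3.44, 4.25 and 5.11 CPM in WT pools, with a log2 fold change of 0.61 ± 0.22 (SE).

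The 2 largest absolute differences of all members, those of kcne4 and kcnj8, were among the channels that set electrical excitability, where 4 of the 6 members were lower. kcnh6a, the zebrafish gene of the rapid delayed rectifier potassium channel that repolarizes the heart, had 388, 249 and 351 CPM in mdka-KO pools, against 1004, 487.5 and 476 CPM in WT pools. WT pool 1 held about the sum of the other WT pools, and all mdka-KO pools were below all WT pools. The log2 fold change was -0.99 ± 0.31 (SE) and became -0.55 without WT pool 1. kcnh6a lies on GRCz11 chromosome 3 at 31728871 to 31784082, reverse strand. kcnj8, the pore subunit of an ATP-sensitive potassium channel, was the lowest member relative to WT, with 0.819, 0.604 and 0.897 CPM in mdka-KO pools, against 2.09, 1.5 and 1.69 CPM in WT pools, with a log2 fold change of -1.18 ± 0.31 (SE). It rests on 13 to 45 counts per library, far fewer than kcnh6a with 5372 to 21608. scn1ba, an accessory beta subunit of voltage-gated sodium channels, had 1.64, 3.02 and 5.63 CPM in mdka-KO pools, against 5.90, 8.66 and 5.69 CPM in WT pools. The mdka-KO pools differed 3.44-fold among themselves and the highest stood just under the lowest WT pool, with a log2 fold change of -0.99 ± 0.42 (SE) (-0.65 without mdka-KO pool 2, -1.54 without mdka-KO pool 4).

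Beta subunits appeared in both directions. kcne4, which in mammals restrains voltage-gated potassium channels of the Kcnq1 kind, had 81.6, 47.7 and 60.7 CPM in mdka-KO pools, against 17.8, 30.0 and 31.4 CPM in WT pools. It was the most increased member in mdka-KO relative to WT, with a log2 fold change of 1.26 ± 0.26 (SE) (2.40-fold), and mdka-KO pool 2 was the highest. kcne4 lies on chromosome 15 at 43093044 to 43100399, forward strand. The cytoplasmic beta subunits kcnab1b and kcnab2b, which bind potassium channels of the Shaker kind, went opposite ways at low level. kcnab1b had 3.43, 2.51 and 2.84 CPM in mdka-KO pools, against 1.16, 1.81 and 1.42 CPM in WT pools, with a log2 fold change of 1.0 ± 0.28 (SE). kcnab2b had 2.61, 2.32 and 3.04 CPM in mdka-KO pools, against 4.23, 5.03 and 4.22 CPM in WT pools, with a log2 fold change of -0.76 ± 0.21 (SE). Neither overlapped between genotypes.

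**Figure D2:**
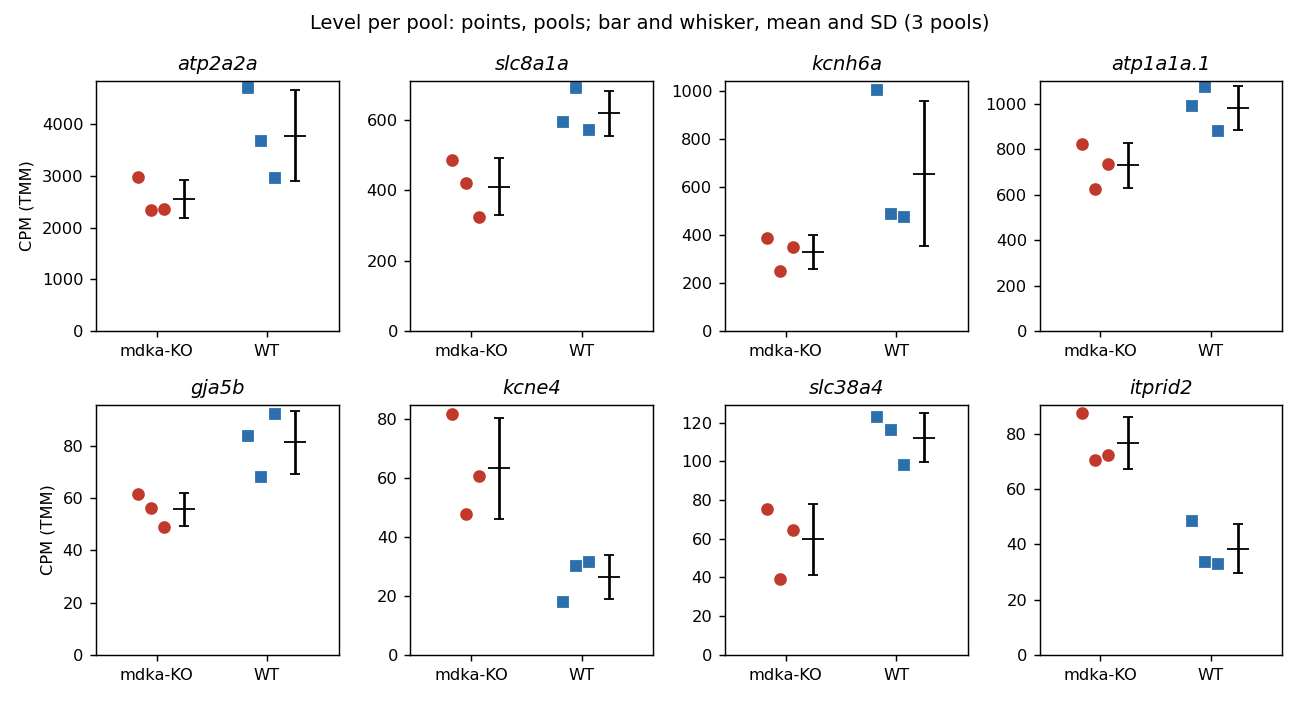
CPM (y axis, from 0) of 8 members in each mdka-KO pool (circles) and WT pool (squares), in pool order within each genotype, with mean and SD over 3 pools beside them. atp2a2a, slc8a1a, kcnh6a, atp1a1a.1, gja5b and slc38a4 had lower means in mdka-KO and kcne4 and itprid2 higher ones, and the wide WT spread of kcnh6a includes pool 1 at 1004 CPM.

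Among the pumps and the junction gene, 3 of 4 members were lower. atp1a1a.1, a catalytic subunit of the sodium pump in the heart, had 825, 628 and 737 CPM in mdka-KO pools, against 991, 1073 and 882 CPM in WT pools. The mdka-KO pools were all below the WT pools, with a log2 fold change of -0.43 ± 0.14 (SE). RSEM divides reads that match several of the tandem copies of this gene, so the division between them is uncertain. The 6 annotated copies summed had 635 to 831 CPM in mdka-KO pools and 894 to 1081 CPM in WT pools. Their log2 ratio was -0.43, as for atp1a1a.1 alone. gja5b, a connexin of gap junctions, had 61.7, 56.4 and 49.0 CPM in mdka-KO pools, against 83.9, 68.1 and 92.1 CPM in WT pools, with a log2 fold change of -0.55 ± 0.15 (SE). atp11a, a flippase that moves phospholipids between membrane leaflets, had 85.5, 80.0 and 70.5 CPM in mdka-KO pools, against 136, 107 and 98.6 CPM in WT pools, with a log2 fold change of -0.53 ± 0.15 (SE). atp13a2, a lysosomal polyamine exporter, was the one higher member of this group, with 26.5, 27.0 and 24.1 CPM in mdka-KO pools, against 14.4, 16.7 and 21.3 CPM in WT pools, with a log2 fold change of 0.56 ± 0.16 (SE).

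The carriers and channels of anions and protons formed the next group of 7, of which 4 were higher and 3 lower. slc9a1b, a sodium-proton exchanger that expels acid, had 52.7, 32.4 and 39.8 CPM in mdka-KO pools, against 18.8, 30.7 and 22.3 CPM in WT pools, with a log2 fold change of 0.80 ± 0.23 (SE). mdka-KO pool 3 (32.4) was close to WT pool 2 (30.7). slc4a2b, a chloride-bicarbonate exchanger, had 11.6, 10.4 and 10.5 CPM in mdka-KO pools, against 6.46, 7.41 and 5.90 CPM in WT pools, with a log2 fold change of 0.72 ± 0.15 (SE). The mdka-KO pools of this gene were nearly equal. ano9a, of the anoctamin family of chloride channels and lipid scramblases, had 12.2, 18.7 and 15.8 CPM in mdka-KO pools, against 8.60, 5.96 and 8.70 CPM in WT pools, with a log2 fold change of 1.01 ± 0.22 (SE). slc26a11, an anion exchanger related to sulfate carriers, was higher by a smaller margin at 9.57 to 9.66 CPM in mdka-KO pools and 6.74 to 8.17 CPM in WT pools. Lower were slc12a7b, a potassium-chloride cotransporter, and both chloride channel genes. slc12a7b had 286, 264 and 226 CPM in mdka-KO pools, against 409.9, 326 and 335 CPM in WT pools, with a log2 fold change of -0.47 ± 0.14 (SE). clcn2a, a plasma membrane chloride channel, had 6.32, 5.67 and 6.13 CPM in mdka-KO pools, against 9.02, 8.19 and 7.43 CPM in WT pools, with a log2 fold change of -0.44 ± 0.16 (SE). clcn4, a chloride-proton exchanger of endosomes, had 14.2 to 15.3 CPM in mdka-KO pools and 17.9 to 20.1 CPM in WT pools, with a log2 fold change of -0.33 ± 0.12 (SE).

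Amino acid carriers were higher in 4 of 5 members. slc16a10, which carries aromatic amino acids, had 34.6, 29.0 and 39 CPM in mdka-KO pools, against 16.7, 22.3 and 18.2 CPM in WT pools, with a log2 fold change of 0.84 ± 0.16 (SE). slc43a2b, a carrier of branched-chain and other large neutral amino acids, had 23.4, 21.7 and 24.7 CPM in mdka-KO pools, against 13.2, 16.2 and 10.7 CPM in WT pools, with a log2 fold change of 0.80 ± 0.17 (SE). The mdka-KO pools of both genes stood clear of the WT pools. slc36a1, a proton-coupled carrier of lysosomes, and slc38a6, of the sodium-coupled neutral amino acid family, were higher by log2 fold changes of 0.49 and 0.37. The exception was slc38a4, a sodium-coupled carrier of neutral amino acids, with 75.2, 39.4 and 64.4 CPM in mdka-KO pools, against 123, 116 and 98.1 CPM in WT pools, with a log2 fold change of -0.91 ± 0.23 (SE). mdka-KO pool 3 was lowest at 39.4 CPM, and without it the log2 fold change was -0.69. slc38a4 lies on chromosome 4 at 1516716 to 1566572, forward strand.

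Other solutes accounted for 11 members, 7 higher and 4 lower. slc23a2, which takes up ascorbate, and aqp3a, a channel for water and glycerol, were 2.12-fold and 2.02-fold higher in mdka-KO. slc23a2 had 4.95, 4.18 and 5.38 CPM in mdka-KO pools, against 2.04, 3.27 and 1.53 CPM in WT pools, with a log2 fold change of 1.08 ± 0.30 (SE). aqp3a had 3.00, 2.14 and 3.39 CPM in mdka-KO pools, against 0.976, 1.71 and 1.53 CPM in WT pools, with a log2 fold change of 1.02 ± 0.32 (SE). Both rest on few counts (29 to 127 and 21 to 77 per library). Higher too were slc22a21, a carnitine carrier in the mouse (log2 0.75), slc39a7, which releases zinc from the endoplasmic reticulum (0.61), slc2a10, of the glucose transporter family (0.59), and slc45a4b (0.54). The last was slc48a1b, a heme transporter, with a log2 fold change of 0.53 ± 0.16 (SE). slc48a1b had 20.4, 22.5 and 19.4 CPM in mdka-KO pools, against 12.5, 13 and 17.7 CPM in WT pools. The erythroid marker sum was 4113 to 9039 CPM in mdka-KO pools and 2686 to 4743 CPM in WT pools, so it overlapped between genotypes. Among the mdka-KO pools this sum was lowest in pool 3, where slc48a1b was highest. Among the WT pools the sum and slc48a1b were both lowest in pool 1. A link between the sum and slc48a1b was not tested. The lower members of this group carry nutrients and phosphate. slc22a16, a carnitine carrier, had 3.63, 4.32 and 3.34 CPM in mdka-KO pools, against 6.32, 6.38 and 8.33 CPM in WT pools, with a log2 fold change of -0.90 ± 0.20 (SE). slc27a1a, a fatty acid transport protein, had 66.4, 72.8 and 61.2 CPM in mdka-KO pools, against 87.3, 80.8 and 85.6 CPM in WT pools, with a log2 fold change of -0.34 ± 0.11 (SE). slc20a2, a phosphate carrier, had 135, 107 and 103 CPM in mdka-KO pools, against 148, 161 and 150.4 CPM in WT pools, with a log2 fold change of -0.41 ± 0.13 (SE). In all 3 the mdka-KO pools lay below the WT pools, and so did those of slc52a3, a riboflavin carrier, with a log2 fold change of -0.56 ± 0.15 (SE).

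Zebrafish keep more than 1 copy of many of these genes from an ancestral genome duplication, and the other annotated copies were looked up by symbol for the 39 members. There were 23 such copies for 18 members, of which 15 (of 14 members) passed the filter and were tested. A copy with a small enough p would itself have been among the rows used, so these copies were picked against and their share that passed is not read against the 12.1%. Of the 15 copies, 6 differed in the same direction as their member, the median log2 fold change was -0.04, and 3 passed the test. The other gja5 gene (ENSDARG00000040065) had 44.3, 49.2 and 41.0 CPM in mdka-KO pools, against 47.9, 71.9 and 62.1 CPM in WT pools and fell in mdka-KO by 0.44 on the log2 scale (adjusted p = 0.345). atp1a1a.2 fell, with a log2 fold change of -0.93 ± 0.40 (SE, adjusted p = 0.41), and lay under 1 CPM in every pool. The other atp2b1 gene (ENSDARG00000012684) had 32.6, 25.3 and 33.0 CPM in mdka-KO pools, against 19.3, 28.1 and 15 CPM in WT pools and rose in mdka-KO, with a log2 fold change of 0.54 ± 0.23 (SE, adjusted p = 0.41). No copy passed with an adjusted p below 0.05 in edgeR, DESeq2 or limma-voom. Leaving out mdka-KO pool 2 or mdka-KO pool 4 left 0 copies past the unadjusted threshold.

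None of the other 12 tested copies passed, and several lay opposite to their member. The other slc4a2 gene (ENSDARG00000028173) had 95.6, 116 and 146 CPM in mdka-KO pools, against 164, 228 and 103 CPM in WT pools, with a log2 fold change of -0.47 ± 0.28 (SE, adjusted p = 0.59), while slc4a2b was higher. Summing both copies gave log2 -0.40 for mdka-KO over WT, against 0.72 for slc4a2b alone, so the sign depends on which copies are counted. The sum was 107 to 156 CPM in mdka-KO pools and 109 to 235 CPM in WT pools, so the groups overlapped. The other slc43a2 gene (ENSDARG00000036848) had a log2 fold change of -0.04 ± 0.13 (SE), and the summed level of both copies was 65.7 to 72.6 CPM in mdka-KO pools and 56.9 to 66.5 CPM in WT pools, a log2 ratio of 0.19 against 0.80 for slc43a2b alone. The other atp2a2 gene (ENSDARG00000005122) had 96.6, 78.7 and 89.5 CPM in mdka-KO pools, against 97.2, 79.1 and 56.8 CPM in WT pools, with a log2 fold change of 0.18 ± 0.20 (SE, adjusted p = 0.802), and the sum of both atp2a2 genes still had a log2 ratio of -0.54. The other kcnab1 gene (ENSDARG00000008140) was below 2 CPM in every pool with a log2 fold change of -0.61 ± 0.73 (SE), and the summed level had a log2 ratio of 0.50. The slc12a7a copy had 23.5, 17.4 and 21.8 CPM in mdka-KO pools, against 10.7, 19.8 and 13 CPM in WT pools, with a log2 fold change of 0.53 ± 0.24 (SE, adjusted p = 0.437), against -0.47 for slc12a7b. Further tested copies had log2 fold changes of 0.30 (slc8a1, ENSDARG00000043406), 0.12 (clcn2b), 0.05 (slc27a1, ENSDARG00000104949), -0.04 (kcnab2a) and -0.16 (slc48a1, ENSDARG00000026907). Whether member and copy differ from each other was not tested, because the member was chosen by its difference.

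**Figure D3:**
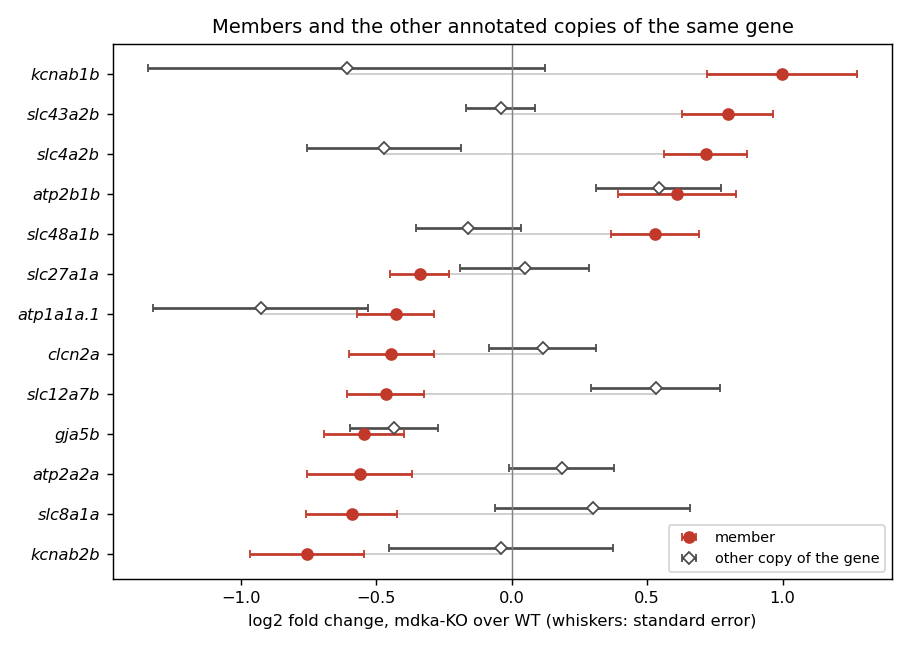
Log2 fold change of mdka-KO over WT (x axis) for 13 members (circles) and 13 of the other annotated copies that were tested (diamonds), with SE as whiskers and a line joining each pair. Of the 13 copies shown, 4 lie on the same side of 0 as their member. Of all 15 tested copies, with those not shown, 6 do.

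The members were then read beside lists of cardiac genes, in which any member is counted separately. The calcium cycling list held 23 symbols, of which 20 matched a gene and 19 were tested. In mdka-KO 6 genes passed the test and all 6 were lower, with a median log2 fold change of -0.31, but 2 of the 6 were the members atp2a2a and slc8a1a, which the rule chose by this contrast. Without the members, 4 of 17 tested genes passed, all lower (23.5%, beside 6.42% of all tested genes in that direction), and the median was -0.27. The 4 that passed carry none of the prefixes of the rule. Several of the other genes do, and the ranked rows had already taken those with small p. This share is therefore not read against the background. trdn, triadin, an anchor of the calcium release complex, had 115, 129.9 and 104 CPM in mdka-KO pools, against 247, 175 and 199 CPM in WT pools. The mdka-KO pools were all below the WT pools, with a log2 fold change of -0.83 ± 0.16 (SE, adjusted p = 0.162). srl, sarcalumenin, a calcium-binding protein of the sarcoplasmic reticulum, had 245.5, 229.7 and 195 CPM in mdka-KO pools, against 329.5, 297 and 359 CPM in WT pools, with a log2 fold change of -0.56 ± 0.13 (SE, adjusted p = 0.213). hrc, a histidine-rich protein of the same store, and casq2 (ENSDARG00000008982), calsequestrin, which buffers stored calcium, fell by 0.39 and 0.31 on the log2 scale (adjusted p = 0.268 and adjusted p = 0.351). The cardiac ryanodine receptor gene ryr2 (ENSDARG00000003706) had 309, 428 and 281 CPM in mdka-KO pools, against 399, 416 and 577 CPM in WT pools, with a log2 fold change of -0.45 ± 0.21 (SE), and did not pass (adjusted p = 0.449). Without mdka-KO pool 4 the count was 3 of the list. None had an adjusted p below 0.05 in edgeR or limma-voom, and 3 did in DESeq2.

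Of 34 symbols on the action potential list, 29 matched a gene. The sodium channel symbols scn5laa and scn5lab were among those without a match, so these genes were not examined. Of the matched genes, 14 were tested and 8 passed, 1 higher and 7 lower, with a median log2 fold change of -0.65. Of the lower genes, 3 (scn1ba, kcnh6a and kcnj8) and the higher one (kcne4) were members. Without the members, 4 of 10 tested genes passed and all 4 were lower (40.0%, beside 6.42% of all tested genes in that direction), and the median was -0.55. Most of the 10 carry prefixes of the rule, so the ranked rows used here decided which of them were left. This share is therefore not read against the background. kcnq1.1 could not be a member because of its chromosome. kcnq1.1, on chromosome 7, encodes a slow delayed rectifier potassium channel and had 36.1, 36.7 and 27.1 CPM in mdka-KO pools, against 74.8, 46.7 and 47.0 CPM in WT pools, with a log2 fold change of -0.75 ± 0.22 (SE, adjusted p = 0.245). The highest value was again in WT pool 1. abcc9 (ENSDARG00000015985), the regulatory subunit of the channel whose pore kcnj8 encodes, had 84.1, 77.1 and 41.3 CPM in mdka-KO pools, against 106, 132 and 94.1 CPM in WT pools, with a log2 fold change of -0.71 ± 0.26 (SE, adjusted p = 0.345). kcnj11, another such pore, and kcnj12a, an inward rectifier, fell by 0.74 and 0.59 on the log2 scale (adjusted p = 0.414 and adjusted p = 0.405). The pacemaker channel gene hcn2b had 96.1, 62.5 and 90.5 CPM in mdka-KO pools, against 216, 97.5 and 96.5 CPM in WT pools and did not pass (adjusted p = 0.458). The count was 5 without mdka-KO pool 3 or WT pool 2, and 4 with scaling by library size alone. By adjusted p 0 passed in edgeR and limma-voom and 3 in DESeq2.

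The sodium pump list held 12 tested genes, and 3 passed, all lower: the member atp1a1a.1, its tandem copy atp1a1a.2 and a beta subunit gene, atp1b1 (ENSDARG00000013144). atp1b1 had 937, 753 and 790.4 CPM in mdka-KO pools, against 1031, 1148 and 949 CPM in WT pools, with a log2 fold change of -0.33 ± 0.13 (SE, adjusted p = 0.374). The median of the list was -0.38. Without the member, 2 of 11 tested genes passed, both lower (18.2%, beside 6.42% of all tested genes in that direction), with a median of -0.33. All 11 carry a prefix of the rule, so the ranked rows used here decided which genes were left. This share is therefore not read against the background. Another catalytic gene, atp1a3b, had 850.5, 836 and 806 CPM in mdka-KO pools, against 1224, 953 and 631 CPM in WT pools and did not pass (adjusted p = 0.854), with WT pool 4 below the mdka-KO pools. The count moved with single libraries, as 0 genes passed without mdka-KO pool 3, without WT pool 2 or with scaling by library size, 1 without mdka-KO pool 4, and 5 without WT pool 4. By adjusted p none passed in edgeR, DESeq2 or limma-voom.

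**Figure D4:**
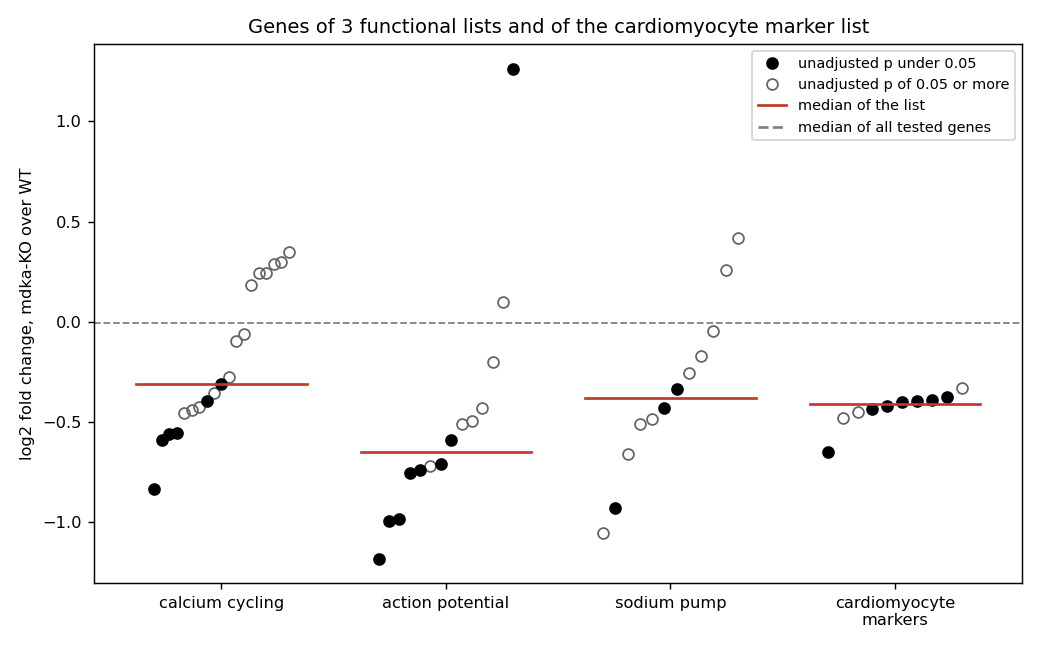
Log2 fold change of mdka-KO over WT (y axis) for the tested genes of the 3 lists and of the cardiomyocyte markers, sorted within each list, with red lines at the list medians, members included (-0.31, -0.65, -0.38 and -0.41) and a dashed line at the median of all tested genes (-0.01). Filled points had an unadjusted p below 0.05, and kcne4 is the filled point near the top of the action potential list.

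Cardiomyocyte markers moved with these lists. Of 10 tested cardiomyocyte markers, 7 passed the test and all 7 were lower (70%, against 6.42% of all tested genes in that direction). The median log2 fold change was -0.41, and -0.27 with scaling by library size alone. The summed level of these markers, given above, did not overlap between genotypes. It adds CPM, so the most abundant markers weigh most in it. In mdka-KO pool 2, actc1a, myl7 and cmlc1 had 14226, 11528 and 8309 CPM, against 50.8 CPM for tbx5a. The early heart transcription factor gene nkx2.5 had 111, 112 and 96.3 CPM in mdka-KO pools, against 144, 134 and 148 CPM in WT pools, with a log2 fold change of -0.42 ± 0.11 (SE, adjusted p = 0.221). Dividing each member by this sum in every pool, an added calculation chosen after seeing the data, left 16 of the 18 lower members with a ratio below that in WT, with log2 ratios from -0.78 to 0.06. The genotypes remained apart for 3 of the 18, kcnj8, slc38a4 and slc22a16. These members were chosen by their difference, and no share over all tested genes is given for this ratio. Nothing is therefore read from either count. kcnj8 had 0.183, 0.149 and 0.245 CPM per 10000 CPM of markers in mdka-KO pools, against 0.37, 0.294 and 0.325 in WT pools. The ratio of atp1a1a.1 was 155 to 202 in mdka-KO pools and 170 to 210 in WT pools per 10000, and that of atp2a2a 578 to 668 in mdka-KO pools and 569 to 833 in WT pools. The part of the marker difference in the lower levels of the members was not tested.

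**Figure D5:**
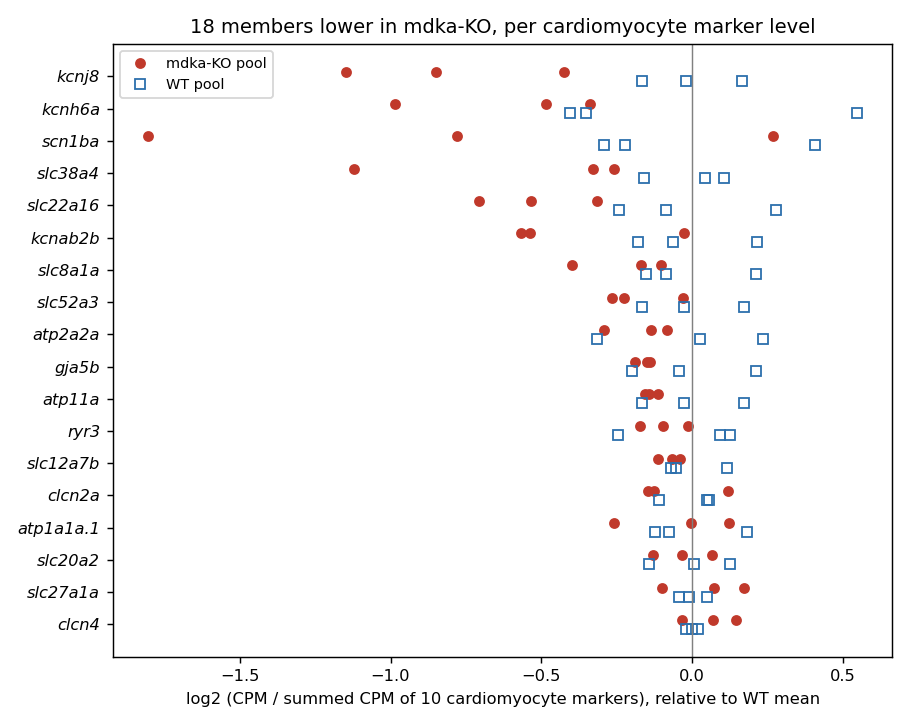
Each row is 1 of the 18 lower members and shows, for each mdka-KO pool (circles) and WT pool (squares), log2 of the ratio of its CPM to the summed CPM of 10 cardiomyocyte markers, relative to the WT mean. Only kcnj8, slc38a4 and slc22a16 show the pools of both genotypes apart.

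Some markers of other cell types also changed. Beside the counts below, 5.64% of all tested genes passed as higher and 6.42% as lower, and the marker lists are short. Of 10 tested macrophage markers, 4 passed the test and were higher in mdka-KO, while 5 others, all copies of mfap4, had negative log2 fold changes that did not pass, and the median was 0.16. Their summed level was 941 to 1168 CPM in mdka-KO pools and 674 to 765 CPM in WT pools. Of 8 epicardial or fibroblast markers, the collagen genes col1a1a and col1a2 passed and were higher (0.62 and 0.51). Their adjusted p-values by edgeR were 0.213 and 0.293. None of the others passed. Of the epicardial genes, aldh1a2 had a log2 fold change of 0.23, tcf21 of 0.02, tbx18 of -0.22 and wt1b of -0.20. The values of postn (ENSDARG00000104267) and pdgfra were 0.56 and 0.15. The summed level of these 8 genes was 4513 to 5888 CPM in mdka-KO pools and 3068 to 4241 CPM in WT pools, with a median log2 fold change of 0.19. Of 5 smooth muscle markers 2 passed and were higher, and 1 had a negative log2 fold change that did not pass. Of 3 erythroid genes 2 passed and were higher, and of 7 endothelial markers 1 passed as higher and 1 as lower. Of 2 neutrophil markers 1 passed and was lower, and 0 of 3 neural markers passed. The part of these cell types in the higher members was not tested.

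The whole family that the prefixes define, without chromosome 7, held 710 genes, of which 378 were tested. In mdka-KO 79 of them passed the test (20.9%, against 12.1% of all tested genes), the 39 members among them, 41 higher and 38 lower, and the median log2 fold change was 0.01. Symbols came from the study's ranked rows where these held one, and otherwise from a reference table. A gene with no reference symbol, or with one that lacks these prefixes, could enter only through the ranked rows. Those rows were ranked by p of this contrast, so the share of 20.9% is not read against the 12.1%. With scaling by library size alone the split was 72 higher and 14 lower, so the balance of directions depends on the scaling. With chromosome 7 kept in, 87 of 406 passed (47 higher and 40 lower). Leaving out mdka-KO pool 4 gave 40 genes, 21 higher and 19 lower. Without mdka-KO pool 2 there were 22 higher, and without mdka-KO pool 3 there were 22 lower. The share over all tested genes in these refits is not given, so the shifts are not read as particular to the family. No gene of the family passed by adjusted p in edgeR or limma-voom, and 13 did in DESeq2. By class, 45 of 222 solute carriers passed (27 higher and 18 lower), 7 of 35 potassium channel genes (2 higher and 5 lower), 3 of 13 connexins (all lower) and 3 of 5 aquaporins (all higher). The calcium, sodium and other cation channels had 8 of 51 (5 higher and 3 lower). Chloride channels and anoctamins had 4 of 20 (1 higher and 3 lower), and genes with the atp1 or atp2 prefix 9 of 32 (3 higher and 6 lower). All these counts include members, which were chosen by this contrast.

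Of 339 tested family genes that were not members, 40 passed, 20 higher and 20 lower. The rows used had already taken genes with small p, and where they end sets how many passing genes were left outside the members, so this share is not read against the background. Of those, slc24a2, a potassium-dependent sodium-calcium exchanger, had 9.59, 6.36 and 8.77 CPM in mdka-KO pools, against 21.9, 9.18 and 27.2 CPM in WT pools, with a log2 fold change of -1.24 ± 0.37 (SE, adjusted p = 0.258). WT pool 2 lay below the highest mdka-KO pool, so the groups overlapped. The other lower genes with the smallest p were slc26a10 (-1.39), slc38a3 (ENSDARG00000027065, -0.69), ryr1 (ENSDARG00000011422, -1.08) and clcnk (-0.73). In that order their adjusted p-values by edgeR were 0.284, 0.323, 0.33 and 0.339. slc26a10 had 0.65 to 1.13 CPM in mdka-KO pools and 1.09 to 3.30 CPM in WT pools, so the groups overlapped. clcnk was below 2 CPM in every pool. ryr1, the ryanodine receptor of skeletal muscle, had 2.81, 3.99 and 4.23 CPM in mdka-KO pools, against 11.9, 7.52 and 3.90 CPM in WT pools, so WT pool 1 was highest and WT pool 4 was within the mdka-KO range. It did not pass without WT pool 1. The higher ones included slc46a3 (ENSDARG00000079933, 0.72), slc41a1 (ENSDARG00000070214, 1.09), slc66a3 (ENSDARG00000054251, 0.58) and slc22a15 (0.48). Their adjusted p-values lay between 0.316 and 0.345. slc41a1, too, was below 2 CPM in every pool. Some abundant family genes had log2 fold changes near 0. The serotonin transporter gene slc6a4 (ENSDARG00000061165) had 469, 481 and 374 CPM in mdka-KO pools, against 439, 487 and 432 CPM in WT pools, with a log2 fold change of -0.04 ± 0.13 (SE, adjusted p = 0.961). The amino acid carrier gene slc38a2 (ENSDARG00000045886) had a log2 fold change of -0.07 ± 0.19 (SE, adjusted p = 0.943). The monocarboxylate carrier gene slc16a3 (ENSDARG00000045051), which exports lactate, fell, with 278, 211 and 194.5 CPM in mdka-KO pools, against 244, 347 and 379.8 CPM in WT pools, with a log2 fold change of -0.51 ± 0.20 (SE, adjusted p = 0.377). The 6 other abundant family genes by the same rule (aqp8, ryr2, slc29a1, slc4a2, slc20a1 and atp1a3b) did not pass, with log2 fold changes from -0.65 to -0.12.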

How the data were processed

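Libraries from 3 pools of 3 apexes per genotype were grouped by their labels, and all 6 library columns were assigned. Per the labels and the study's methods, stranded poly(A) libraries were sequenced as single reads and demultiplexed with bcl2fastq 2.20.0.422, trimmed with cutadapt and quantified with RSEM against the GRCz11 transcriptome. The deposited values are RSEM expected counts of 32520 genes, made by the authors without normalization; RSEM divides reads among similar copies, so near-identical genes are uncertain. Symbols came from the study's rows where these held one, and otherwise from a reference table (29201 IDs matched). The reference table names some copies in capitals after the human gene, and such genes are given in lower case with their identifier. Coordinates came from the study's table.

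Expected counts were rounded and fitted with edgeR 4.0.16 (R 4.3.3): filterByExpr (minimum count 10, minimum total 15), TMM and a two-sided quasi-likelihood test of mdka-KO over WT without covariates, with Benjamini-Hochberg adjustment over all 17879 tested genes. The SE of a log2 fold change was derived from this test, as its absolute value divided by the square root of the F statistic. The common dispersion was 0.0555, and the fit was tested on simulated data. Each replicate is a pool of fish, so p-values measure the spread between pools and not between single hearts, and low-count genes carry counting error as well. The alternatives were RLE or library size scaling, DESeq2 1.42.0, limma-voom (limma 3.58.1), filtering at CPM above 1 in 3 or more libraries or not at all, a replicate block, and leaving out single libraries. Ratios to the cardiomyocyte markers, summed copies and the family with chromosome 7 were added after seeing the data.

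The members, lists and tests were chosen with earlier results of these data known. Values are given in every pool for members with the 10 largest absolute differences or 10 highest levels or with a tested copy, for tested copies, for list genes that passed, and for the 5 smallest p in each direction and 10 most abundant of the other family genes; some of these are given by log2 fold change only, and a few others were named after their values were seen. Marker lists covered cardiomyocytes, endothelium, epicardium and fibroblasts, macrophages, neutrophils, erythroid cells, smooth muscle and neural cells. From the study's ranked list only the first 1264 rows were used, and the rest was not used here. Its test columns were not used either. A few genes that the naming rule takes are not reported here.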

Additional observations from a re-analysis of the deposited data

How the results depend on the processing

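Counts of genes past the unadjusted threshold moved by more than 1.5 times under these alternatives. The share over all tested genes in each refit is not given, so the shifts are not read as particular to the family or lists. With scaling by library size alone, the family had 72 higher and 14 lower genes (41 and 38 with TMM), the action potential list 4 (8 with TMM) and the sodium pump list 0 (3 with TMM). With the filter on CPM above 1, 1 of the other gene copies passed, against 3. Leaving out 1 library gave 40 to 82 family genes, 21 to 40 higher and 19 to 44 lower, 3 to 8 genes of the calcium cycling list, 5 to 10 of the action potential list, 0 to 5 of the sodium pump list and 0 to 3 of the other copies. By adjusted p, 0 family genes passed in edgeR and limma-voom and 13 in DESeq2, and in the calcium cycling and action potential lists 0 passed in edgeR and limma-voom and 3 each in DESeq2. The medians of the calcium cycling, action potential and sodium pump lists kept their sign in all refits but moved, for calcium cycling to -0.17 with library size scaling (-0.31 with TMM), and for the sodium pump to -0.17 with the replicate block and -0.25 with library size scaling (-0.38 in the reported fit), while the family median lay between -0.01 and 0.15. The other counts stayed within 1.5 times, and no direction of a member turned in any refit. Summing copies turned slc4a2b to -0.40, with the groups overlapping in the sum. trdn, srl and kcnq1.1 kept their call in all 13 refits, and hrc and abcc9 in 11. The call was kept in 7 of 13 by kcnj11, kcnj12a and atp1b1 (ENSDARG00000013144), in 6 by casq2 and in 2 of 12 by atp1a1a.2. Both genotypes share only the numbers 2 and 4, and the deviations of these pools from their group means had correlations of 0.0886 and 0.00236. Pools of unlike number reached 0.0889 (mdka-KO pool 3 with WT pool 4). These few values cannot show whether the numbers pair the samples, and the main fit uses no pairing. With the replicate number as a block, 1 gene of the sodium pump list and 5 of the other copies passed, and kcnh6a had a log2 fold change of -0.38. The numbers 1 and 3 each occur in 1 library only. WT pool 1 and mdka-KO pool 3 therefore add nothing to the contrast with this block, which rests on pools 2 and 4 of each genotype. With 3 pools per genotype, low-count members such as kcnj8 are imprecise.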
